A study of Mus musculus with 6 samples.

Results

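Interleukin-1 (IL-1) signalling in macrophages rests on a small set of genes that make the ligands, block them, receive them and process them. Of these, 10 were examined in co-cultured bone marrow-derived macrophages (BMDMs): the ligand genes Il1a, Il1b and Il18, the antagonist gene Il1rn, the receptor genes Il1r1, Il1r2 and Il1rap, the inflammasome sensor gene Nlrp3, and the inflammatory caspase genes Casp1 and Casp4. They were selected by gene symbol from the 54532 genes of the deposited table, and all 10 were among the 13441 genes that passed the filter on low values (at least 1 FPKM in at least 3 libraries). FPKM counts fragments after division by gene length and by library size. Levels of different genes can be compared only as far as the gene lengths used fit the transcripts present, which was not tested. The 6 libraries came from BMDMs of C57BL/6 mice aged 6 to 8 weeks grown together with ID8, an ovarian cancer line of mouse origin. In 3 libraries the ID8 cells had first been exposed to 40 µM cisplatin, which crosslinks DNA, and in the other 3 to phosphate-buffered saline (PBS). How the BMDMs were separated from the ID8 cells before RNA extraction, and the sex of the marrow donors, are not given in the sources used here.

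IL-1α and IL-1β, encoded by Il1a and Il1b, bind the type I receptor IL-1R1, which then recruits the accessory protein IL-1RAP and signals through MyD88 to NF-κB. The signal is held back by the receptor antagonist encoded by Il1rn, which occupies IL-1R1 without activating it, and by the decoy receptor IL-1R2, which binds ligand but lacks the intracellular signalling domain. IL-1β and IL-18 are made as inactive precursors. The inflammasome sensor NLRP3, once activated in a macrophage, assembles with the adaptor ASC (Pycard) and caspase-1, which cleaves both precursors and the pore-forming protein gasdermin D, while caspase-11 (Casp4 in the mouse) responds to cytosolic lipopolysaccharide and also cleaves gasdermin D. All values below are of RNA. Neither cleavage nor secretion was measured.

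The RNA content of the libraries differed between the groups beyond these genes. Reads recovered from the FPKM values numbered 15776238 to 17924686 per library. At an adjusted p under 0.05, 32.9% of all tested genes were higher with cisplatin and 35.1% lower. At that threshold 10 of 10 tested macrophage markers were higher in the cisplatin libraries (summed level 4203 to 4356 FPKM against 1638 to 1649 with PBS). So were 9 of 10 neutrophil markers (9036 to 9257 against 4914 to 5062 FPKM), with Ly6g at only 2.40 to 3.49 FPKM over the 6 libraries. A few genes carry these sums, Lyz2 (3459 against 1161 FPKM on average) the macrophage one and S100a8 and S100a9 the neutrophil one. The median log2 fold changes of the lists were 0.90 and 1.07. The macrophage markers Mertk and Mrc1, at most 0.43 and 0.917 FPKM with PBS, passed the filter only through the cisplatin libraries, where they were higher. Of the ID8 and mesothelial list, 9 of 10 tested genes were lower and Cdh1 was higher (summed level 205 to 224 against 1108 to 1209 FPKM). Of its untested genes, Krt7 and Igfbp5 were at or near 0 in both groups. Epcam overlapped between the groups, at 0.209 to 0.403 FPKM with cisplatin and 0.158 to 0.305 with PBS. Of 4 tested dendritic cell markers 3 were higher and 1 lower. Flt3 (higher) reached 1 FPKM only with cisplatin and Zbtb46 (lower) only with PBS, so each was tested only through its high group. Of 4 tested T and B cell markers all 4 were higher, and of 2 tested fibroblast markers (Col1a1 and Dcn) both were lower. Among untested fibroblast markers, Pdgfra was lower (0.175 to 0.24 FPKM against 0.961 to 1.122) and Pdgfrb higher (0.934 to 1.095 against 0.6 to 0.691). Col1a2, Col3a1 and Lum were near 0. All 4 Y-linked genes examined (Uty, Kdm5d, Eif2s3y and Ddx3y) were higher with cisplatin, and the female-specific transcript Xist went from 39.0 to 48.8 FPKM in the PBS libraries down to 7.57 to 7.94 FPKM in the cisplatin libraries. The part of these shifts in the results below was not tested, and values of the 10 genes and of the called pathway genes relative to the Y-linked genes are given further on.

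Across the 10 genes, RNA of the sensor, of IL-1α and IL-1β, of the decoy receptor and of caspase-1 was higher in the cisplatin libraries, whereas RNA of the antagonist, of IL-18 and of caspase-11 was lower. These are directions in FPKM as deposited, and scaling to the Y-linked genes, described further on, turned the rises of Il1a, Il1b, Il1r2 and Casp1 into falls. At an adjusted p under 0.05, 5 genes were higher and 3 lower, and the remaining 2 (Il1r1 and Il1rap) did not pass. These 8 of 10 stand against 68% of all tested genes at that threshold (32.9% higher, 35.1% lower). The same 8 genes had groups that did not overlap, against 72.4% of all tested genes (35.2% higher, 37.2% lower), so neither count sets the 10 genes apart from the rest. With the further requirement of a log2 fold change of at least 1, Nlrp3 was called higher and Il18 lower, against 4.67% and 11.3% of all tested genes. The median log2 fold change was 0.28 over the 10 genes and -0.0011 over all tested genes. Tests were limma's on log2(FPKM + 1), fitted over all 13441 genes with Benjamini-Hochberg adjustment. In bulk RNA, fewer cells of a type and less RNA per cell cannot be told apart. The labels do not say whether the 3 libraries of a group came from separate cultures or animals, so the p-values measure the spread between these libraries, which may be technical.

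**Figure D1:**
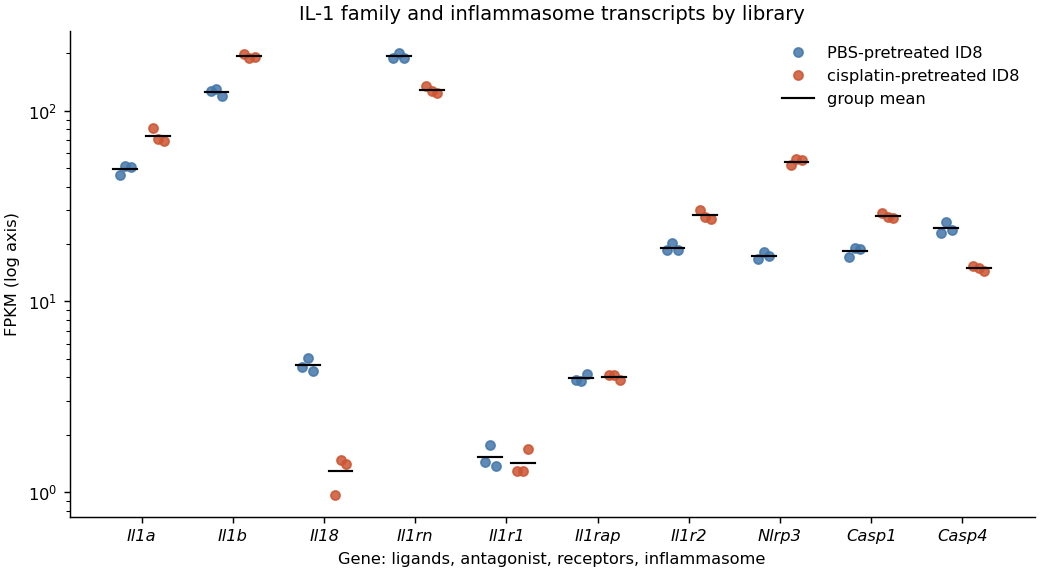
FPKM (log axis) of the 10 genes in each of the 6 libraries, PBS in blue and cisplatin in orange, with a bar at the group mean. The groups are apart for 8 genes and overlap for Il1r1 and Il1rap, and Il1b and Il1rn change places at the top of the scale.

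The ligand genes Il1b and Il1a rose side by side. Il1b (ENSMUSG00000027398, chromosome 2, 129364570 to 129371139, minus strand) stood at 127, 129.8 and 119 FPKM in the PBS libraries and at 199.6, 188 and 190.5 FPKM in the cisplatin libraries. The lowest cisplatin library lay well above the highest PBS library, and the log2 fold change was 0.62 (SE 0.044, limma adjusted p = 1.98e-05). Il1a (ENSMUSG00000027399, chromosome 2, 129299610 to 129309972, minus strand), whose product is active without caspase-1, stood at 45.9, 51.3 and 50.8 FPKM with PBS and at 81.5, 70.8 and 69.7 FPKM with cisplatin. These groups were also apart, with cisplatin replicate 1 the highest library, and the log2 fold change was 0.57 (SE 0.073, limma adjusted p = 0.000378). Neither gene reached a log2 fold change of 1, and 13.2% of all tested genes had a larger log2 fold change than Il1b. The pair lies next to each other on chromosome 2, and the ratio of Il1a to Il1b within a library was 0.39 ± 0.033 with PBS and 0.38 ± 0.022 with cisplatin (SD, n = 3 each, two-sided exact permutation test, p = 0.7). The ratios overlapped between the groups, and no difference between the changes of the 2 genes was detectable with 3 libraries each.

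The antagonist went the other way. Il1rn (ENSMUSG00000026981, chromosome 2, 24336853 to 24351494, plus strand) was the most abundant of the 10 transcripts in the PBS libraries, at 190.1, 200.3 and 189 FPKM, and fell to 134, 127 and 124 FPKM in the cisplatin libraries. No cisplatin library reached the lowest PBS library (log2 fold change -0.59, SE 0.043, limma adjusted p = 2.39e-05). With Il1b rising, the order of the 2 transcripts on the FPKM scale was exchanged. That order depends on the gene lengths used, 5535 bases for Il1rn and 1907 for Il1b. In reads not divided by length, Il1rn stayed above Il1b with cisplatin (12660, 11528 and 11321 against 6474, 5900 and 6001). There were 1.495, 1.54 and 1.59 Il1rn transcripts per Il1b transcript in the PBS libraries on the FPKM scale, and 0.674, 0.673 and 0.65 in the cisplatin libraries. This ratio does not depend on how a library is scaled, and its log2 value differed by -1.21 between the groups (two-sided exact permutation test, p = 0.1, adjusted p = 0.113 over 17 ratios). A p of 0.1 is the smallest that 3 libraries against 3 can give.

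IL-18, the other caspase-1 substrate of the family, had little RNA in either group. Il18 (ENSMUSG00000039217, chromosome 9, 50554827 to 50581840, plus strand) stood at 4.55, 5.04 and 4.32 FPKM with PBS and at 0.969, 1.48 and 1.41 FPKM with cisplatin, which rested on 83, 81 and 69 reads and on 17, 25 and 24 reads. All 3 cisplatin libraries lay below the PBS libraries (log2 fold change -1.31, SE 0.11, limma adjusted p = 4.51e-05). Because a pseudocount of 1 dampens changes at this level, limma voom on the recovered reads gave a larger fall, of 1.84 on the log2 scale. Against Il1b, Il18 went from 0.037 ± 0.0017 to 0.0067 ± 0.0016 transcripts per transcript on the FPKM scale (SD, n = 3 each, two-sided exact permutation test, p = 0.1, adjusted p = 0.113). Il18bp, which encodes the secreted protein that binds and neutralises IL-18, fell too, from 6.20, 7.74 and 7.31 FPKM with PBS to 2.84, 2.78 and 2.84 FPKM with cisplatin (log2 fold change -1.08, SE 0.081, limma adjusted p = 2.72e-05). The receptor subunit gene Il18r1 had overlapping groups between 1.15 and 1.70 FPKM.

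**Figure D2:**
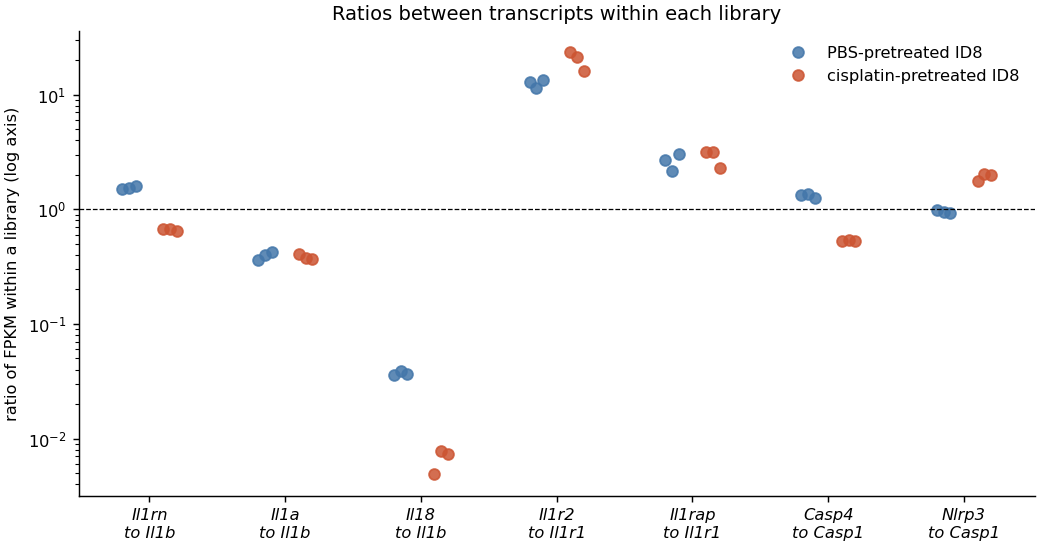
Ratio of the FPKM of 2 genes within each library (log axis), PBS in blue and cisplatin in orange, with a dashed line where both genes are equal. Il1rn to Il1b and Casp4 to Casp1 cross the line from above 1 to below 1, and Il1a to Il1b and Il1rap to Il1r1 overlap between the groups.

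Among the 3 receptor genes of the 10, the decoy alone passed the test in FPKM as deposited, and all 3 were lower and passed it when scaled to the Y-linked genes. Il1r2 (ENSMUSG00000026073, chromosome 1, 40074079 to 40125231, plus strand) rose from 18.6, 20.3 and 18.6 FPKM with PBS to 30.3, 27.8 and 27.1 FPKM with cisplatin. The groups were apart (log2 fold change 0.55, SE 0.057, limma adjusted p = 0.000145). The signalling receptor gene Il1r1 (ENSMUSG00000026072, chromosome 1, 40225080 to 40317257, plus strand) was the least abundant of the 10 with PBS, at 1.43, 1.77 and 1.38 FPKM, and stood at 1.29, 1.29 and 1.68 FPKM with cisplatin. Its groups overlapped, and the interval of its log2 fold change ran from -0.32 to 0.20 (95% interval, limma adjusted p = 0.648). The accessory receptor gene Il1rap (ENSMUSG00000022514, chromosome 16, 26581704 to 26730117, plus strand) also overlapped, at 3.86, 3.84 and 4.16 FPKM with PBS and 4.13, 4.10 and 3.88 FPKM with cisplatin (95% interval -0.12 to 0.16, limma adjusted p = 0.739). These intervals leave out a change of log2 size 1 on the log2(FPKM + 1) scale, which dampens changes at such low levels. There were 13.01, 11.5 and 13.5 decoy transcripts per Il1r1 transcript with PBS and 23.4, 21.5 and 16.1 with cisplatin, groups that did not overlap (two-sided exact permutation test, p = 0.1, adjusted p = 0.113).

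Il1r2 and Il1r1 head a run of IL-1 receptor genes on chromosome 1, and their neighbours did not move as one. Il1rl2, which encodes the receptor for IL-36, stood at 1.60, 1.85 and 1.53 FPKM with PBS and 3.68, 4.75 and 3.32 FPKM with cisplatin (log2 fold change 0.88, limma adjusted p = 0.000533). Il1rl1, the IL-33 receptor gene, went from 1.47, 1.33 and 1.34 to 3.68, 3.16 and 3.63 FPKM (log2 fold change 0.92, limma adjusted p = 5.29e-05). Il18rap, the accessory subunit for IL-18, went from 6.08, 6.39 and 6.42 to 10.5, 10.3 and 10.9 FPKM (log2 fold change 0.67, limma adjusted p = 2.09e-05). Thus 4 of the 6 tested genes of this run were higher at an adjusted p under 0.05, against 32.9% of all tested genes, and Il1r1 and Il18r1, each lying between genes that were higher, did not pass.

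**Figure D3:**
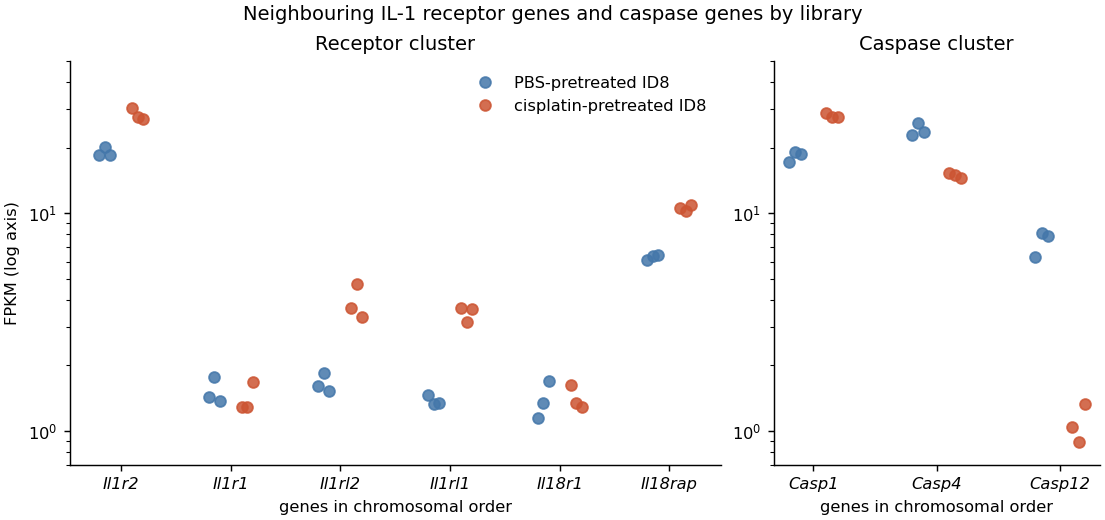
FPKM (log axis) of the tested IL-1 receptor genes on chromosome 1 and of the 3 caspase genes on chromosome 9 in chromosomal order, PBS in blue and cisplatin in orange, 1 point per library. Il1r1 and Il18r1 overlap between the groups, and in FPKM as deposited Casp1 is higher with cisplatin while its neighbours Casp4 and Casp12 are lower.

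The sensor gene rose the most among the 10. Nlrp3 (ENSMUSG00000032691, chromosome 11, 59541568 to 59566956, plus strand) stood at 16.8, 18.1 and 17.3 FPKM with PBS and at 51.7, 55.8 and 54.98 FPKM with cisplatin. All 3 cisplatin libraries lay far above the PBS libraries, by 3.12-fold in the means (log2 fold change 1.58, SE 0.047, limma adjusted p = 3.41e-07), and 0.967% of all tested genes had a larger log2 fold change. The adaptor gene Pycard, which joins NLRP3 to caspase-1, rose by less, from 7.27, 7.20 and 6.99 to 10.4, 10.96 and 9.82 FPKM (log2 fold change 0.48, limma adjusted p = 0.00018, and -0.40 when scaled to the Y-linked genes). Per Casp1 transcript there were 0.978, 0.949 and 0.922 Nlrp3 transcripts with PBS and 1.78, 2.02 and 1.996 with cisplatin on the FPKM scale (two-sided exact permutation test, p = 0.1, adjusted p = 0.113).

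The 2 inflammatory caspase genes, which are neighbours on chromosome 9, moved in opposite directions. Casp1 (ENSMUSG00000025888, chromosome 9, 5298517 to 5307265, plus strand) rose from 17.1, 19.1 and 18.7 FPKM with PBS to 29.0, 27.7 and 27.5 FPKM with cisplatin (log2 fold change 0.59, SE 0.051, limma adjusted p = 5.29e-05). Casp4 (ENSMUSG00000033538, chromosome 9, 5308828 to 5336783, plus strand) fell from 22.8, 26.1 and 23.6 FPKM to 15.4, 14.99 and 14.5 FPKM (log2 fold change -0.66, SE 0.057, limma adjusted p = 5.60e-05). Both sets of groups were apart. On the FPKM scale every PBS library had more Casp4 than Casp1, at 1.33, 1.37 and 1.26 transcripts per transcript. With cisplatin every library had less, at 0.53, 0.542 and 0.526 (log2 difference -1.31, two-sided exact permutation test, p = 0.1, adjusted p = 0.113). Which gene is ahead depends on the gene lengths used, 3710 bases for Casp4 and 1497 for Casp1. In reads not divided by length, Casp4 stayed above Casp1 with cisplatin (971, 913 and 888 against 739, 680 and 681). Next to Casp4 lies Casp12, a further inflammatory caspase gene, which fell from 6.33, 8.14 and 7.84 to 1.04, 0.888 and 1.33 FPKM (log2 fold change -2.02, SE 0.12, limma adjusted p = 7.50e-06). The transcripts of Casp1, Casp4 and Casp12 had no stretch of 50 bases in common with each other or with any other gene of GENCODE release M21.

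Ordered by level, the PBS libraries ran from Il1rn (193 FPKM on average) through Il1b (125), Il1a (49.3), Casp4 (24.2), Il1r2 (19.2), Casp1 (18.3), Nlrp3 (17.4), Il18 (4.64) and Il1rap (3.95) to Il1r1 (1.53). Il1r2 and Casp1, and Casp1 and Nlrp3, overlapped between libraries, and the other neighbours were apart. In the cisplatin libraries the order was Il1b (193), Il1rn (128), Il1a (74.0), Nlrp3 (54.1), Il1r2 (28.4), Casp1 (28.1), Casp4 (14.96), Il1rap (4.03), Il1r1 (1.42) and Il18 (1.29). There Il1r2 overlapped Casp1, and Il1r1 overlapped Il18.

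The wider pathway was examined through 6 lists, which gave 55 tested genes. Of 7 other ligand and soluble inhibitor genes found in the table, 3 were tested. Il1f9, which encodes the epithelial and myeloid cytokine IL-36γ, was more abundant than Il1b in the cisplatin libraries, at 289, 271 and 287 FPKM against 119.7, 118 and 113 FPKM with PBS (log2 fold change 1.26, SE 0.040, limma adjusted p = 4.70e-07). Its transcripts share 2.01% of their stretches of 50 bases with other genes. Il18bp was lower, as above, and Il1f6 (IL-36α) had overlapping groups between 1.09 and 2.21 FPKM. Il33 stayed between 0.081 and 0.295 FPKM and was not tested. Of 5 other receptor genes tested, 4 were higher at an adjusted p under 0.05, against 32.9% of all tested genes. Their median log2 fold change was 0.67, or -0.20 when scaled to the Y-linked genes, where the median of all tested genes was -0.81. None was past the fold threshold with a pseudocount of 1, and Il1rl1 and Il1rl2 were past it in 4 other settings, at 1.28 and 1.18 with a pseudocount of 0.1.

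Of 9 other sensors and adaptors tested, 6 rose and 1 fell at the adjusted p threshold, which 68% of all tested genes passed, with a median of 0.30 that became -0.61 when scaled to the Y-linked genes. Nlrp1a, a sensor of the NLRP1 type, was the only one called, from 0.407, 0.401 and 0.511 to 2.08, 2.08 and 2.01 FPKM (log2 fold change 1.09, limma adjusted p = 3.97e-05). Nlrp1a reached 1 FPKM only in the cisplatin libraries, so it passed the filter only through the group where it was higher. At this low level the log2 fold change was 2.002 with a pseudocount of 0.1 and 2.23 with limma voom. Nlrp1a shares 2.07% of its stretches of 50 bases with its relatives and may share reads with them. The DNA sensor gene Aim2 went from 13.5, 13.5 and 11.4 to 17.6, 16.96 and 15.9 FPKM (log2 fold change 0.37, limma adjusted p = 0.00367). The lower one was Naip6, which with its relatives detects bacterial proteins (log2 fold change -0.24, limma adjusted p = 0.0249).

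The other caspases and the genes of pyroptosis, the lytic death that gasdermin pores cause, had a median log2 fold change below 0, at -0.57 (-1.48 when scaled to the Y-linked genes). Of 8 tested, 6 were lower and none higher at an adjusted p under 0.05, where 35.1% of all tested genes were lower and 32.9% higher. Among the 6, Gsdme passed the filter only through the PBS libraries (1.166, 1.34 and 1.174 FPKM against 0.863, 0.688 and 0.95 with cisplatin). Gsdmd, which encodes gasdermin D, fell from 166, 152 and 165 FPKM with PBS to 47.4, 47.5 and 46.0 FPKM with cisplatin, with the groups far apart (log2 fold change -1.76, SE 0.043, limma adjusted p = 1.66e-07). Casp6 fell from 5.44, 5.39 and 5.31 to 1.61, 1.94 and 1.61 FPKM (log2 fold change -1.23, limma adjusted p = 7.76e-06). Casp8 had overlapping groups between 25.4 and 29.2 FPKM, and Ninj1, which encodes a protein that ruptures the plasma membrane after gasdermin pores form, had overlapping groups between 103.8 and 142 FPKM.

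Among 10 tested genes of ion flux and regulation, 5 rose and 3 fell at the adjusted p threshold, near the 68% of all tested genes that passed it (median 0.12, or -0.78 when scaled to the Y-linked genes). P2rx7, the ATP-gated channel gene, rose from 2.62, 3.12 and 2.65 to 7.92, 6.96 and 6.50 FPKM (log2 fold change 1.10, SE 0.088, limma adjusted p = 3.72e-05), and the potassium channel gene Kcnk6 (TWIK2) from 1.48, 1.76 and 1.48 to 6.93, 6.29 and 6.36 FPKM (log2 fold change 1.55, SE 0.074, limma adjusted p = 2.92e-06). Txnip, whose product binds thioredoxin, fell from 179, 182 and 174 to 74.8, 78.2 and 73.4 FPKM (log2 fold change -1.23, limma adjusted p = 3.79e-07).

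Downstream of the receptor, 20 genes were tested, of which 7 rose and 7 fell at the adjusted p threshold, again near the 68% of all tested genes, with a median of 0.11 that became -0.85 when scaled to the Y-linked genes. Myd88, the adaptor gene, went from 25.4, 25.6 and 24.9 to 37.1, 39.2 and 36.8 FPKM (log2 fold change 0.56, limma adjusted p = 1.74e-05, and -0.39 when scaled to the Y-linked genes). Tab1, a partner of the kinase TAK1, was the only one called, from 13.8, 11.4 and 13.97 to 5.65, 5.55 and 5.03 FPKM (log2 fold change -1.13, limma adjusted p = 2.75e-05). Nfkbia and Nfkbiz, targets and regulators of NF-κB, had log2 fold changes of -0.55 (limma adjusted p = 1.32e-05) and -0.35 (limma adjusted p = 0.000305). Over all 6 lists, 4 of the 55 tested genes were called higher and 6 lower, against 4.67% and 11.3% of all tested genes. Among the 4, Nlrp1a was tested only because its cisplatin libraries passed the filter.

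**Figure D4:**
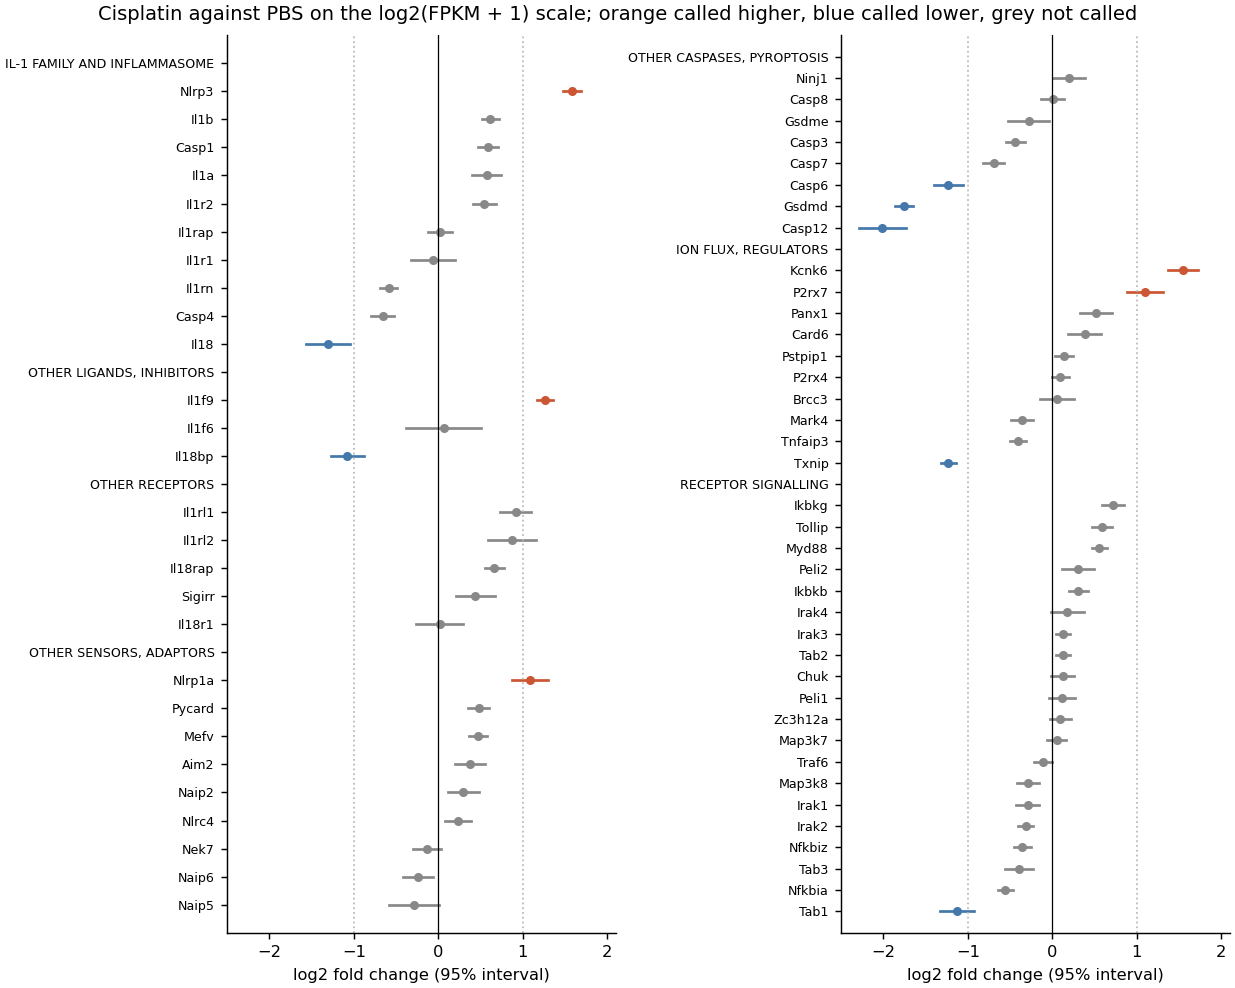
Log2 fold change on the log2(FPKM + 1) scale with its 95% interval for every tested gene of the 10 and of the 6 pathway lists, orange where called higher with cisplatin, blue where called lower and grey where not called, with dotted lines at the fold threshold of 1. Nlrp3 at 1.58 and Kcnk6 at 1.55 are the rightmost points, and Casp12 at -2.02 and Gsdmd at -1.76 the leftmost.

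Measured against the Y-linked genes, some of the rises above became falls and others did not. The 4 Y-linked genes were summed in each library, and every gene was divided by that sum. Nlrp3 was then still higher, at 0.763, 0.799 and 0.887 with PBS and 1.21, 1.34 and 1.32 with cisplatin. Il1b was lower, at 5.79, 5.72 and 6.11 with PBS and 4.66, 4.52 and 4.58 with cisplatin. Il1rn, also lower without this scaling, went from 8.65, 8.83 and 9.71 to 3.14, 3.04 and 2.98. In the ratios to the Y-linked genes Nlrp3 alone was higher and the other 9 genes were lower, and the groups did not overlap for any of the 10 (two-sided exact permutation test, p = 0.1 each, adjusted p = 0.113). Refitted by limma with this scaling, Il1a (-0.39), Il1b (-0.35), Il1r2 (-0.39), Casp1 (-0.35) and Il1rap (-0.76) turned negative, while Nlrp3 (0.64), Il1rn (-1.56), Il18 (-1.97) and Casp4 (-1.58) kept their direction. All 10 then passed at an adjusted p under 0.05, Il1r1 and Il1rap included. Of the pathway genes, the 4 called higher were still above 0, with Il1f9 at 0.29, Nlrp1a at 0.61, Kcnk6 at 0.82 and P2rx7 at 0.30, as were Il1rl1 (0.25) and, without passing the test, Il1rl2 (0.18). Pycard (-0.40), Aim2 (-0.54), Myd88 (-0.39) and Il18rap (-0.20) turned negative. The 6 called lower were further below 0, from Il18bp at -1.86 to Gsdmd at -2.72. Over all tested genes the median under this scaling was -0.81. Relative to that median Il1a, Il1b, Il1r2 and Casp1 were still above and Il1rn, Il18 and Casp4 still below. Il1rap and Il1r1 (-0.64) were a little above it, though Il1r1 was below the median as deposited (-0.06 against -0.0011). On the log2(FPKM + 1) scale a common factor moves low genes less. In the ratios to the Y-linked genes, which have no pseudocount, the log2 difference was -0.948 for Il1rap and -1.08 for Il1r1. Under the other settings run, Il1r1 was the one gene of the 10 whose direction changed.

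**Figure D5:**
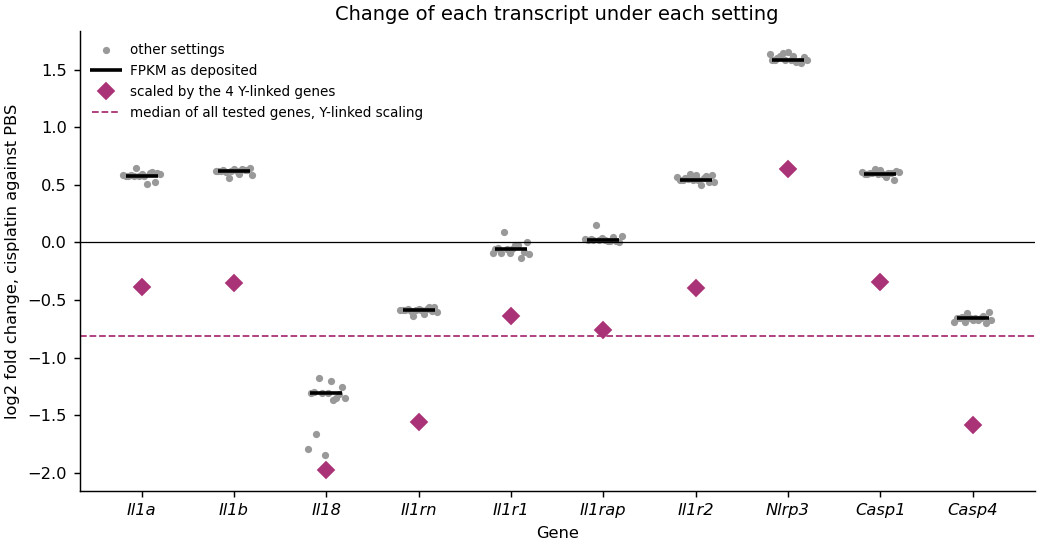
Log2 fold change of each of the 10 genes with the FPKM as deposited (black bar), under the other settings (grey points) and with scaling by the 4 Y-linked genes (diamonds), whose median over all tested genes is the dashed line at -0.81. Il1a, Il1b, Il1r2, Il1rap and Casp1 cross 0 under that scaling, and Nlrp3, Il1rn, Il18 and Casp4 do not.

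Sequence before the start sites is shown for members that moved together or apart. RefSeq promoter windows (GRCm38.p6, 250 bases before to 50 after a start site) were found for all 10 genes, 15 windows in all, and were searched on both strands for 5 motifs: ISRE (GAAA, any 2 bases and GAAA again, in 3.44% of all 32851 windows), GAS (TTCNNNGAA, 8.3%), the NF-κB consensus (4.51%), C/EBP (TTNNGNAA, 40.7%) and AP-1 (TGANTCA, 7.81%). The stretches shown are those of the 2 ligand genes that rose together, of their antagonist, of the sensor, and of the caspase neighbours. Capitals mark C/EBP in Il1b, C/EBP and then AP-1 in Il1a, AP-1 in Il1rn and the NF-κB consensus in Nlrp3 and Casp4, where 2 overlapping matches form 1 run. C/EBP also matched in the Nlrp3 stretch, from -204 to -197 and from -125 to -118, and in the Casp4 stretch, from -127 to -120 counted from the start site, and is left in lower case there. Casp1 held none of the 5 motifs.
Il1b, chr2:129371140-129371289, minus strand: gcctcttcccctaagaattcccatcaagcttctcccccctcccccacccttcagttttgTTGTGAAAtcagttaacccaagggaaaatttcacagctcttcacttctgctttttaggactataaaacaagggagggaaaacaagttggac
Il1a, chr2:129309973-129310122, minus strand: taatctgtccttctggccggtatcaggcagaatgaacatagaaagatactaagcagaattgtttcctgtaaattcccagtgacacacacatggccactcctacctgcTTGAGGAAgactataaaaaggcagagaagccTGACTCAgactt
Il1rn, chr2:24336710-24336852, plus strand: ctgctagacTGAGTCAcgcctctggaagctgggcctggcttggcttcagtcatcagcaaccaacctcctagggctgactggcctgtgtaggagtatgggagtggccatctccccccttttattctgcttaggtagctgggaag
Nlrp3, chr11:59541359-59541508, plus strand: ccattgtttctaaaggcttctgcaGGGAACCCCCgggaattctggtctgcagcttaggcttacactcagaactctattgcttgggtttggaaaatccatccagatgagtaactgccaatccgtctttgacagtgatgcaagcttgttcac
Casp4, chr9:5308699-5308818, plus strand: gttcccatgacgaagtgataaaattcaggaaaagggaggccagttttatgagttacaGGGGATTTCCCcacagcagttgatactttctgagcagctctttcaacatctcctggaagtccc
Casp1, chr9:5298367-5298516, plus strand: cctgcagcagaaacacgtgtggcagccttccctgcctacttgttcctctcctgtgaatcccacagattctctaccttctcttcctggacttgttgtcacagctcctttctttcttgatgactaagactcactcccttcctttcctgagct

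The match in Nlrp3 began at position -186 from its first start site and the run in Casp4 at position -93 from its own. The NF-κB consensus was thus found both at Nlrp3, which rose, and at Casp4, which fell, and apart from these only in a window of Il1r1, which did not pass the test. The first Il1rn window held AP-1 only, and its 2 later windows held C/EBP. The window of Il18 also held none of the 5 motifs, that of Il1r2 held GAS and that of Il1rap held ISRE just after its start site. A match in such a window is a description of letters and not evidence of binding.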

How the data were processed

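Libraries of poly-T selected RNA were sequenced on an Illumina instrument. The deposited table gives FPKM for each gene and library, calculated by the authors. Their methods name LifeScope for alignment and counting, whereas the submitters' processing notes name fastp, HISAT2 2.0.5, featureCounts 1.5.0-p3 and the build mm10. Which of these made the table is not stated, nor whether strand was used. Il1a, Il1b, Il18, Il1r1, Il1r2 and Il1rap overlap other genes, whose mean levels were at most 1.86 FPKM. All 10 genes had the coordinates of GENCODE M21 (GRCm38).

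Genes with at least 1 FPKM in at least 3 of 6 libraries were tested on log2(FPKM + 1) with limma 3.58.1 under R 4.3.3 (lmFit, eBayes with a trend, group as the only term), which understates changes of low genes. A call required a log2 change of 1 or more in size as well as an adjusted p under 0.05 (Benjamini-Hochberg). FPKM times gene length came out as whole reads, within 0.05 of a read, for 100% of values under 200 reads. Il18 rested on as few as 17 reads and Il1r1 on 135, so their counting error is the largest. The test was tried on simulated data first.

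The 10 genes and all lists were chosen with earlier results of these data known. Named genes were the 10, up to 4 called genes of each pathway list, Pycard, Gsdmd, Myd88, Il18bp, Casp12, Aim2, and listed neighbours of the 10. Il33, Naip6, Casp8, Ninj1, Nfkbia, Nfkbiz, Cdh1, Krt7, Igfbp5, Lyz2 and Ly6g were named after their values were seen. So were Gsdme, Mertk, Mrc1, Flt3, Zbtb46, Epcam and the fibroblast markers. A planned comparison of proteins was not made.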

Additional observations from a re-analysis of the deposited data

How the results depend on the processing

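Of 17 planned settings, scaling by the 4 Y-linked genes gave 87 genes called higher and 5037 lower in place of 628 and 1514, 0 of the 10 genes called higher and 3 lower in place of 1 and 1, and 0 and 19 genes of the pathway lists in place of 4 and 6. It turned Il1a (-0.39), Il1b (-0.35), Il1r2 (-0.39), Il1rap (-0.76), Casp1 (-0.35), Pycard (-0.40), Myd88 (-0.39), Aim2 (-0.54), Il18rap (-0.20), Il18r1 (-0.56), Il1f6 (-0.53), Adgre1 (-0.10), Csf1r (-0.037), S100a8 (-0.12) and S100a9 (-0.22) negative, and by construction Eif2s3y (-0.23) and Uty (-0.10). The medians of the other ligands (-0.53), other receptors (-0.20), sensors (-0.61), ion flux (-0.78) and receptor signalling (-0.85) lists turned with it. The median of all tested genes was then -0.81, and all of these but receptor signalling lay above it. As deposited, receptor signalling lay above it too (0.105 against -0.0011), and on the log2(FPKM + 1) scale a common factor moves low genes less. Under it Il1r1 (-0.64), Il1rap, Il18r1 and Il1f6 came to pass the test at an adjusted p under 0.05, and Il1rl2 (0.18), Kdm5d (0.13), Uty and the macrophage and neutrophil markers Adgre1, Csf1r and S100a8 no longer did. The adjusted p alone gave 4424 and 4721 genes, 5 and 3 of the 10, and 23 and 18 of the lists. Genes called higher numbered 973 with a pseudocount of 0.1 and 1024 with limma voom. A filter at 5 FPKM left out Il18, so 0 of the 10 were called lower. With quantile normalisation Il1r1 was at 0.091, where the median gene was at 0.10, S100a8 went from 0.86 to 0.44 and S100a9 from 0.75 to 0.15 (limma adjusted p = 0.0645). Il1rl1 and Il1rl2 passed the fold threshold with a pseudocount of 0.1, TPM, quantile normalisation and voom, so that 6 list genes were called higher, and under quantile normalisation Il18bp (-0.94) was no longer called lower. Leaving out each library in turn gave 622 to 671 genes higher and 1513 to 1531 lower, and the log2 ratio of Il1a to Il1b from -0.10 to 0.020. Il1r1 then ran from -0.14 to 0.008, Il18r1 from -0.06 to 0.105, and Il1f6, also the median of its list, from -0.084 to 0.222. Replicate numbers are shared by the groups, but deviations of same-numbered libraries did not correlate (-0.104, -0.086 and -0.024). With the replicate number as a block, Il1b stayed at 0.62 (limma adjusted p = 0.000352) and Nlrp3 at 1.58 (limma adjusted p = 2.09e-05), and no call among the 10 changed. For all of these the cause was not tested.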
